A study of Mus musculus with 45 samples.

Results

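Organoids from the small intestine of Lgr5 wild-type (WT) mouse embryos, taken at E17.5 and grown to passage 4, were exposed to mouse Rspondin 2 (Rspo2) or mouse Rspondin 1 (Rspo1) at the same dose of 100 ng/ml, and 6 of the 45 samples of the series hold this comparison. They are the Rspo2 and the Rspo1 library of 3 cultures, WT10, WT5 and WT30, so that each ligand was measured 3 times and the ligands were paired within a culture. Every culture came from 1 embryo of the Lgr5-DTReGFP strain and carried no knock-in allele. All organoids grew in Matrigel in a medium with EGF and noggin but without added Wnt. The doses were equal by mass, and the RNA data do not show whether the 2 proteins were equally active. The paper reports that concentrations were first tried in pilot experiments with the aim of matching bioactivity. It also describes Rspo2 as appearing the most potent of the ligands in organoids. Other organoid libraries served as points of reference: the same cultures with Rspo3 at 100 ng/ml or with each ligand at 5 ng/ml, and Rspo1 and Rspo2 at 100 ng/ml in 2 cultures, KO7 and KO2, homozygous for the DTReGFP insertion that disrupts Lgr5. Levels are reads scaled to library size (CPM). Between 18.13 and 24.73 M reads on genes lay behind each of the 6 libraries, so 1 read was worth at most 0.0552 CPM and 3 reads at most 0.166 CPM. Each sample of a ligand came from a separate embryo.

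R-spondins are secreted proteins that raise the response of a cell to Wnt. They bridge the receptors Lgr4, Lgr5 or Lgr6 to the membrane E3 ligases Rnf43 and Znrf3, which otherwise remove Frizzled receptors, and their loss from the membrane leaves more Frizzled to bind Wnt. In the intestinal crypt this keeps stem cells dividing, and Wnt also drives the maturation of Paneth cells, the granule cells of the crypt base. Axin2, Sp5, Nkd1, Rnf43 and Znrf3 are transcribed in response to Wnt and restrain the pathway, and Lgr5 and Ascl2 are both Wnt-responsive and markers of stem cells.

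Among the genes called higher with Rspo2 than with Rspo1 were 12 of 31 Wnt-responsive and 7 of 20 stem cell genes, led by Sp5, Nkd1 and Tnfrsf19, and each of these genes was higher in all 3 cultures. Among those called lower were Dmbt1, 4 of 58 enterocyte genes and 4 of 54 cell cycle genes. All of these list counts, of rises and of falls, changed with the fit. With a filter of a mean of at least 10 CPM, 1 of 24 Wnt-responsive and 1 of 19 stem cell genes were called higher. Without WT5 it was 18 of 31 and 15 of 20, and without WT10 or without WT30 none was called. Of 17801 genes tested (at least 1 CPM in 3 or more of the 9 WT libraries at 100 ng/ml), 254 passed a false discovery rate of 0.05 (limma on log2(CPM + 1) with culture as a block), which is 1.43% of the genes tested. Among them 154 were higher with Rspo2 (0.865% of genes) and 100 were lower (0.562%). With median-ratio scaling 337 genes were called, 247 higher and 90 lower. Fold changes are given on the log2(CPM + 1) scale, which understates the change of genes near 1 CPM. The rises had a median log2 fold change of 0.90, and 51 of them exceeded 2-fold. The falls had a median of -0.65, and 10 exceeded 2-fold. Of the 154 rises, 4 were under 1 CPM in every Rspo1 and Rspo3 library and so were tested only because they were high with Rspo2. Genes with fewer than 3 Rspo1 and Rspo3 libraries at 1 CPM, such as Msx1, also needed their Rspo2 libraries to be tested. They were not counted, so 4 is a lower bound. Most called genes were near the threshold: the median adjusted p (limma) was 0.0315 among the rises and 0.0327 among the falls, and no gene was called when culture was left out of the model, although 1345 had an unadjusted p under 0.05.

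**Figure D1:**
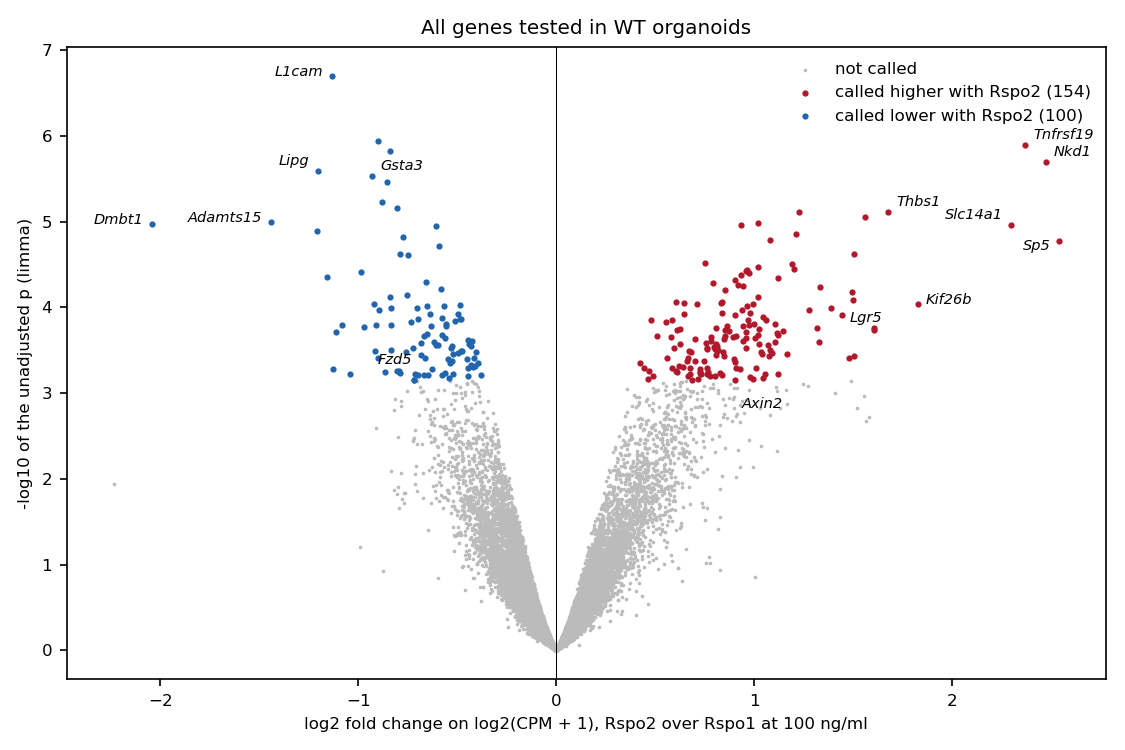
Each point is 1 of the 17801 genes tested; the x axis is the log2 fold change of Rspo2 over Rspo1 at 100 ng/ml and the y axis is -log10 of the unadjusted limma p. The 154 rises (red) reach further from 0 than the 100 falls (blue), and Sp5, Nkd1, Tnfrsf19 and Slc14a1 lie above 2 on the x axis.

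Sp5, a transcription factor gene induced by Wnt (chromosome 2, 70474923 to 70477729, GRCm38), was read at 6.70, 18.1 and 3.75 CPM with Rspo1 in WT10, WT5 and WT30 and at 61.6, 36.6 and 57.4 CPM with Rspo2. Its ligand groups did not overlap, and the log2 fold change was 2.54 ± 0.36 (SE; limma adjusted p = 0.0126). Nkd1, an inhibitor of the Wnt transducer Dishevelled, was at 1.2, 3.55 and 1.00 CPM with Rspo1 and at 14.6, 11.0 and 17.3 CPM with Rspo2 (2.47 ± 0.28, adjusted p = 0.00719). Tnfrsf19 (Troy), a receptor of the TNF family found on crypt stem cells, went from 13.6, 15.4 and 8.55 CPM to 84.7, 40.8 and 87.2 CPM (2.37 ± 0.26, adjusted p = 0.00668). These genes were among the 10 largest rises of called protein-coding genes, which also held the urea transporter Slc14a1 (2.30), the kinesin Kif26b (1.83), the matrix glycoprotein Thbs1 (1.68), Ccdc3 (1.61), the small GTPase Arl4c (1.56), the RNA-binding protein gene Rbms3 (1.51) and the serotonin receptor Htr4 (1.5). Ccdc3 overlaps a transcript on the opposite strand, Gm26776, that was also called, and the strand setting of the counting is not given in the sources used here, so their reads may be shared.

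The 300-base windows around the transcription starts of these 10 genes were searched for the letters to which TCF/LEF factors, the nuclear partners of beta-catenin, bind. The letters searched were CTTTGAT and CTTTGAA on either strand, and 8.7% of all 32851 promoter windows in the RefSeq table (GRCm38.p6; 250 bases before to 50 after each start) held at least 1 of them. Counted by gene, 2671 of 27025 genes (9.9%) had such a window. Of the 10 genes, 7 had a window in the table and 4 of these held the letters: Sp5 (chr2:70474673-70474972, plus strand), a start of Tnfrsf19 (chr14:61037938-61038237, minus strand), Kif26b (chr1:178528875-178529174, plus strand) and a start of Rbms3 (chr9:117629864-117630163, minus strand). The windows of Nkd1, Ccdc3 and Arl4c held none. Windows were held for 78.3% of the protein-coding genes called higher, 79.8% of those called lower and 79.1% of those tested. Of the called genes with a window, 12 of 108 higher (11.1%) and 8 of 67 lower (11.9%) held the letters. Among all protein-coding genes tested it was 749 of 10241 (7.3%). Genes without a window could not be searched, and no difference between these shares was tested. The 4 windows are shown because they belong to the genes with the largest called rises, with capitals marking the letters found.
Sp5: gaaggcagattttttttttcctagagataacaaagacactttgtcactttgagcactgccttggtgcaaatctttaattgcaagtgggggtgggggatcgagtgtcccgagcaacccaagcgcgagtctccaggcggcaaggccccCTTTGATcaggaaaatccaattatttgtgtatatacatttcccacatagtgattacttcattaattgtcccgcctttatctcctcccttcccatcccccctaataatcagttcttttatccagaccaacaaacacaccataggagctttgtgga
Tnfrsf19: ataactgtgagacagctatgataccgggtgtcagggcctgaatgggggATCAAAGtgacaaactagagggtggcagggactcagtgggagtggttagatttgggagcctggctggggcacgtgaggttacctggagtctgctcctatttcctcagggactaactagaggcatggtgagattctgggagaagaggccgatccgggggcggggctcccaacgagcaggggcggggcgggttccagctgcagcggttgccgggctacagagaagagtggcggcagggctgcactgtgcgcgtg
Kif26b: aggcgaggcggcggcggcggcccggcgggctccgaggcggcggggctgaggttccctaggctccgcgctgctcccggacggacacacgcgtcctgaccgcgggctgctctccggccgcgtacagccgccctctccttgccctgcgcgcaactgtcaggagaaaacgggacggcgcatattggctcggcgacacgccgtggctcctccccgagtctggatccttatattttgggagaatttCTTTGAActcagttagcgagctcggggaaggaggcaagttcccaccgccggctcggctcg
Rbms3: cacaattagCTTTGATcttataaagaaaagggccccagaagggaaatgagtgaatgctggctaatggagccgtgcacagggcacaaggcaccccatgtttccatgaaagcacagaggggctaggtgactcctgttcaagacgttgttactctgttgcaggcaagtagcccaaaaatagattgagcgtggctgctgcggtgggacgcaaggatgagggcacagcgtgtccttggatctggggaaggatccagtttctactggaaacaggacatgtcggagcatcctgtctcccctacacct
The letters begin 104 bases before the start in Sp5, 202 in Tnfrsf19, 10 in Kif26b and 241 in Rbms3. A match of letters is a description of the sequence and shows no binding.

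Receptors and ligases of the R-spondin pathway itself were then read. Lgr5 (chromosome 10, 115450311 to 115587780, minus strand, GRCm38) was at 116, 192 and 94.2 CPM with Rspo1 and at 379, 247 and 458 CPM with Rspo2 in WT10, WT5 and WT30, with every Rspo2 value above every Rspo1 value (log2 fold change 1.44 ± 0.25, limma adjusted p = 0.0286). Its paralogue Lgr4 was read at 286, 295 and 288 CPM with Rspo1 and at 332, 279 and 310 CPM with Rspo2, and its difference of 0.08 had a 95% interval of -0.12 to 0.29. Lgr6 was at or under 0.05 CPM in all 6 libraries. Rnf43 rose from 173, 226 and 139 CPM to 327, 266 and 338 CPM (0.81 ± 0.16, adjusted p = 0.0334). Znrf3 rose from 67.7, 86.7 and 77.3 CPM to 114, 97.2 and 139 CPM (0.58 ± 0.12, adjusted p = 0.0439). Fzd9 was called higher (0.84) at 1.75 to 6.35 CPM, whereas Fzd5, the Frizzled receptor that Paneth cell maturation requires, was lower (-0.68 ± 0.14, adjusted p = 0.0364); a transcript on its opposite strand, Gm38058, overlaps it, and it was not called with median-ratio scaling (-0.66, adjusted p = 0.0653). Of 25 tested genes on the list of R-spondin receptors, ligases and Wnt receptors, 4 were higher, 1 was lower and 20 were not called. The organoids themselves held almost no R-spondin transcript, with Rspo1, Rspo2 and Rspo3 at or below 0.10 CPM and Rspo4 at 0.60 CPM or less. Of the Wnt ligand genes, Wnt3, which Paneth cells make, was called higher (0.76 ± 0.15, adjusted p = 0.0344).

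Across the wider list of Wnt feedback and target genes, 12 of 31 tested members were higher with Rspo2 and none was lower, with a median log2 fold change of 0.63 beside -0.03 over all genes tested. The members called were Sp5, Nkd1, Tnfrsf19, Ascl2, Lgr5, Rnf43, Znrf3, Ephb3 and 4 further genes (Tcf7, a partner of beta-catenin, Prox1, Sox4 and Hunk, with log2 fold changes of 1.15, 1.04, 1.03 and 0.81). Ascl2, the transcription factor that sets stem cell identity in the crypt, went from 12.5, 23.5 and 9.40 CPM to 60.9, 26.4 and 42.9 CPM (1.48 ± 0.30, adjusted p = 0.0373). Axin2, the scaffold of the complex that destroys beta-catenin, did not pass (0.90 ± 0.21, adjusted p = 0.061), at 239, 430 and 226 CPM with Rspo1 and 530, 462 and 615 CPM with Rspo2. Sox9 (0.79, adjusted p = 0.0549) and Cd44 (0.63, adjusted p = 0.0824) also stayed above the threshold, with higher values under Rspo2 in each culture.

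**Figure D2:**
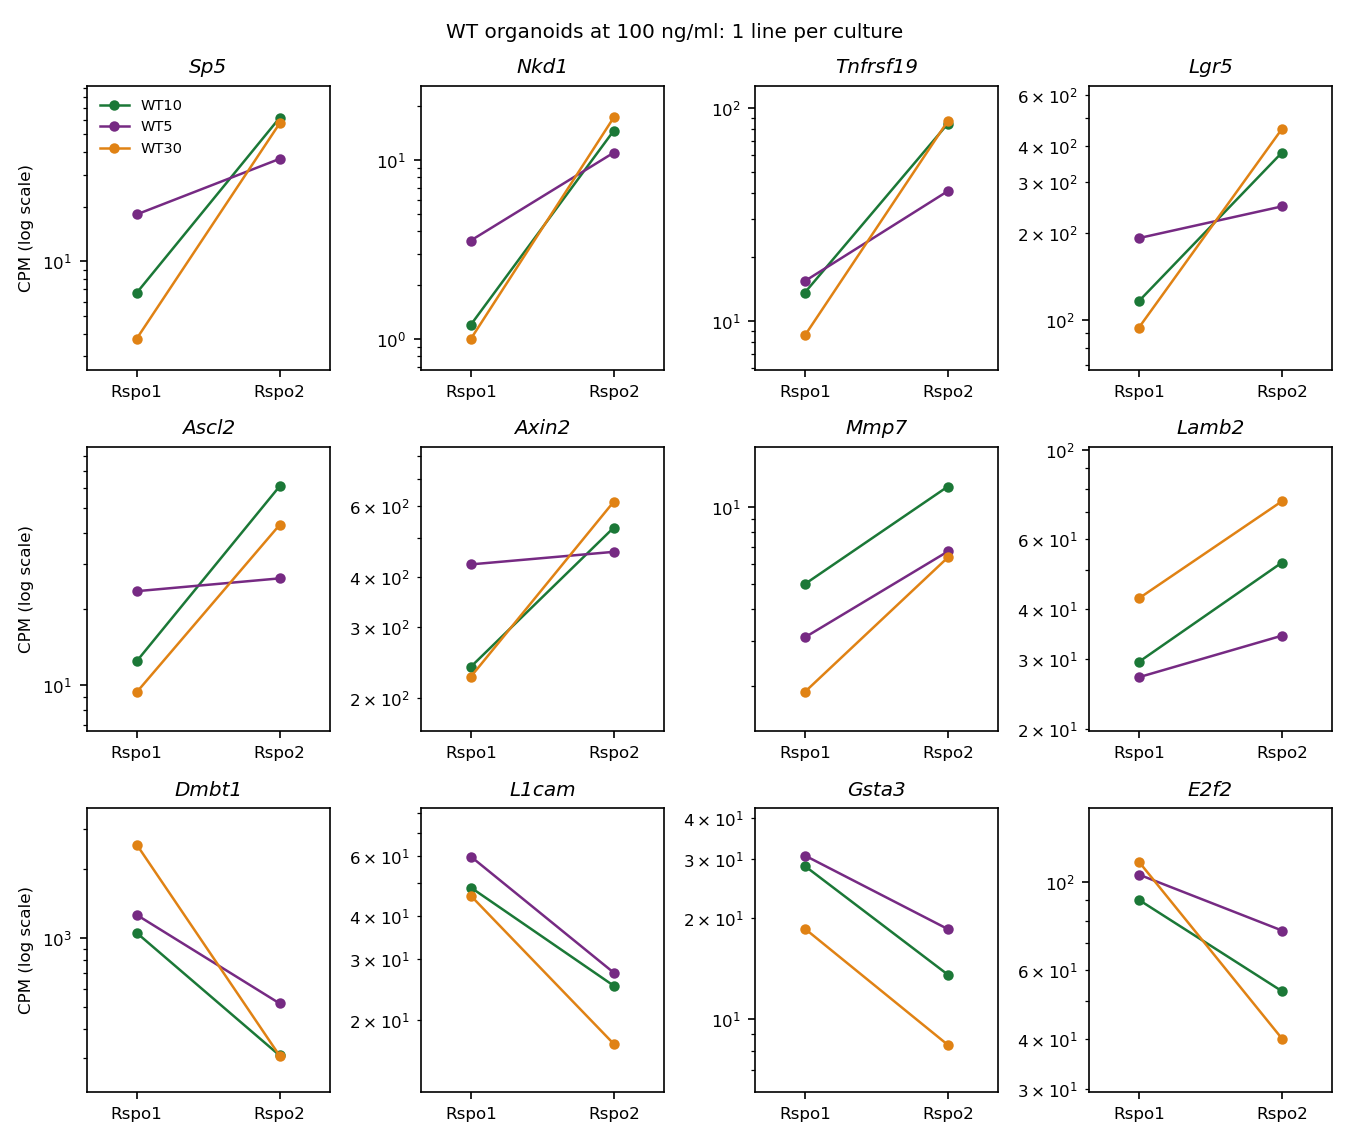
CPM on a log axis of 12 genes with Rspo1 and Rspo2 at 100 ng/ml, with 1 line for each WT culture. Lines rise for Sp5, Nkd1, Tnfrsf19, Lgr5, Ascl2, Axin2 (adjusted p = 0.061), Mmp7 and Lamb2 and fall for Dmbt1, L1cam, Gsta3 and E2f2, and for Lgr5, Ascl2 and Axin2 the WT5 line rises less than those of WT10 and WT30.

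The stem cell list had 7 of 20 tested genes higher and none lower, with a median of 0.72. Beside Lgr5, Ascl2, Tnfrsf19 and Slc14a1 these were the IGF-binding protein Igfbp4 (1.5 ± 0.25, adjusted p = 0.0247), the RNA-binding protein Msi1 (0.94 ± 0.16, adjusted p = 0.0272) and Rgmb, a co-receptor for BMPs (1.03 ± 0.20, adjusted p = 0.0334). Olfm4 was at 694, 833 and 559 CPM with Rspo1 and at 1303, 996 and 1443 CPM with Rspo2, and its adjusted p was 0.0608 (0.84 ± 0.20). In bulk RNA, more cells of a type and more RNA of these genes per cell cannot be told apart.

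The 3 cultures did not respond equally. Over the 154 rises, the median difference of Rspo2 from Rspo1 was 0.96 on the log2 scale in WT10, 0.44 in WT5 and 1.2 in WT30, and over the 100 falls it was -0.66, -0.50 and -0.73. For the Wnt list the medians were 0.83, 0.16 and 1.06. Among the 3 Rspo1 libraries, Sp5, Nkd1, Slc14a1, Lgr5, Ascl2 and Axin2 were highest in WT5. Other large rises were not: Thbs1 was at 61.3, 52.0 and 37.0 CPM with Rspo1 in WT10, WT5 and WT30, Arl4c at 3.6, 4.45 and 5.05 CPM and Rbms3 at 5.7, 5.1 and 5.15 CPM. Among the Rspo2 libraries Sp5, Nkd1, Lgr5, Ascl2 and Axin2 were lowest in WT5, but Slc14a1 was not, at 13.7, 21.6 and 20.7 CPM. Without WT5 the count of called genes was 777 (545 higher, 232 lower), and 226 of the 254 genes were among them, while without WT10 or without WT30 no gene was called (1434 and 1319 genes with an unadjusted p under 0.05).

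Paneth cell genes had 9 of 33 tested members higher and 1 lower, with a median of 0.48. The matrix protease Mmp7, which activates Paneth cell defensins, went from 5.00, 3.10 and 1.90 CPM to 12, 6.70 and 6.35 CPM (1.12 ± 0.18, adjusted p = 0.021). Thbs1 was on this list too, at 61.3, 52.0 and 37.0 CPM with Rspo1 and 187, 97.2 and 220 CPM with Rspo2 (1.68 ± 0.22, adjusted p = 0.0107). Habp2 rose by 0.92 and the secreted phospholipase Pla2g2a by 1.02. Pla2g2a was at 0.50 CPM or less with Rspo1 and 1.2 to 2.35 CPM with Rspo2, and it is 1 of the genes tested only because of its Rspo2 libraries, so its call adds nothing to the count. Of the others, 3 alpha-defensins, Defa22, Defa30 and Defa35, rose by 0.70, 0.61 and 0.78. Alpha-defensin genes are close copies of each other, so the division of reads among them is uncertain. Defa5 (0.48, adjusted p = 0.217) and the lysozyme gene Lyz1 (0.37, adjusted p = 0.354) were not called, and the ligand groups of Lyz1 overlapped at 604, 329 and 448 CPM with Rspo1 and 695, 468 and 591 CPM with Rspo2.

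Among the other secretory lineages, 1 of 21 goblet cell genes was lower (Agr2, which folds mucins in the endoplasmic reticulum, -0.52 ± 0.11, adjusted p = 0.046) and the list had a median of -0.27. The intestinal mucin Muc2 was at 801, 425 and 722 CPM with Rspo1 and at 518, 399 and 466 CPM with Rspo2, lower in each culture but not called (-0.45, adjusted p = 0.213). No gene of 28 enteroendocrine or 16 tuft cell genes was called (limma; 6 and 0 had an unadjusted p under 0.05), and Chga, the granule protein of enteroendocrine cells, differed by -0.15 with a 95% interval of -0.38 to 0.08. Nrarp, a feedback inhibitor induced by Notch, was the single called gene of 22 on the Notch list (-0.63 ± 0.12, adjusted p = 0.0296), and it overlaps an antisense transcript of similar level, Gm38287.

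Of 58 enterocyte genes, 4 were lower and none was higher, and the median was 0.00. This split depended on the fit. With the 6 libraries of the comparison alone 2 were higher and 3 lower, and without WT5 4 were higher and 4 lower. Summed over the list, levels were 13447 to 15069 CPM with Rspo1 and 13530 to 18854 CPM with Rspo2. The carboxylesterases Ces1f and Ces2a fell by 0.99 and 0.81, the neutral amino acid transporter Slc6a19 by 0.70 and the brush border peptidase Ace by 0.72. Ces2a was at 103, 123 and 122 CPM with Rspo1 and at 64.4, 80.1 and 54.8 CPM with Rspo2. In the opposite direction, but not called, were lactase (Lct, 1.27, adjusted p = 0.0538) and Fbp1 (1.58, adjusted p = 0.0785), a gluconeogenic enzyme, both named after their values were seen.

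The largest fall of a called protein-coding gene was that of Dmbt1, a secreted scavenger receptor of mucosal defence (chromosome 7, 131032053 to 131121630, plus strand, GRCm38). It was at 1054, 1263 and 2563 CPM with Rspo1 and at 306, 518 and 306 CPM with Rspo2, so that the groups lay far apart (-2.04 ± 0.28 on the log2 scale, adjusted p = 0.0107). The matrix protease Adamts15 went from 49.9, 25.8 and 85.3 CPM to 16.4, 15.5 and 19.6 CPM (-1.44 ± 0.19, adjusted p = 0.0107). L1cam, a cell adhesion molecule, had the smallest adjusted p of all genes tested (0.00354), at 48.5, 59.7 and 45.9 CPM with Rspo1 and 25.1, 27.4 and 17.0 CPM with Rspo2 (-1.13 ± 0.10), and its span overlaps Arhgap4 on the same strand. The other large called falls were Cyp2c70 (-1.21), the lipases Lipg (-1.21) and Lipn (-1.16), Nqo1 (-1.04), Ces1f (-0.99), Gsta3 (-0.93) and Dnajb3 (-0.92). Dnajb3 lies inside the Ugt1a gene cluster, whose 9 genes share exons and were read at 309 CPM or more with Rspo1, so its 6.10 to 12.9 CPM with Rspo1 cannot be separated from reads of that cluster.

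Genes that build the basement membrane and matrix had 7 of 40 tested members higher and none lower, with a median of 0.22. Lamb2, the laminin beta-2 chain, rose from 29.5, 27.0 and 42.5 CPM to 52.3, 34.3 and 74.5 CPM (0.65 ± 0.11, adjusted p = 0.0286), and Lamb3 by 0.45. Col27a1, the lysyl hydroxylase Plod2 and the membrane protease Mmp15 rose by 0.96, 0.90 and 0.63, and Mmp7 and Thbs1 complete the 7. The laminin alpha-5 gene Lama5 was higher with Rspo2 in each culture but not called (0.52, adjusted p = 0.0685). The collagen IV genes Col4a1 (0.46, adjusted p = 0.397) and Col4a2 (0.34, adjusted p = 0.435), which share a promoter region, and the lysyl oxidase Loxl4 (-0.06, adjusted p = 0.917) were not called, and Loxl4 was at 1.80 to 3.95 CPM in the 6 libraries.

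Fetal and regenerative epithelium genes had 5 of 29 tested members higher and none lower, with a median of 0.27. Among them were Cyr61 (1.32 ± 0.24, adjusted p = 0.03) and Ctgf (1.07 ± 0.21, adjusted p = 0.0338), matricellular genes known as targets of Yap, Ly6a (0.97) and Basp1 (0.85). Ly6a was at 2.70, 2.60 and 2.00 CPM with Rspo1 and at 5.85, 6.5 and 4.80 CPM with Rspo2, so that these were low levels in both groups. On the list of Eph receptors and ephrins, Ephb3, which sorts crypt cells by position, rose by 0.78 and Efna3 by 0.81, out of 14 tested. Of the BMP pathway genes Rgmb and Msx1 (0.87) were higher and Bmp3 was lower (-0.75 ± 0.13, adjusted p = 0.0263), out of 25 tested. Msx1 was at 1.15, 0.75 and 1.5 CPM with Rspo1 and at or under 0.45 CPM with Rspo3. It was tested only because of its Rspo2 libraries, so its call adds nothing to the count. The antimicrobial list had Tnfaip3, an inhibitor of NF-kB, higher (0.61) and Dmbt1 lower out of 23 tested, and the interferon list had Ifi27l2b lower (-0.84) out of 24.

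Of 54 cell cycle genes tested, 4 were lower with Rspo2 and none was higher, with a median of -0.17, and 27 were lower in all 3 cultures beside 4188 of the 17801 genes tested. The called genes were E2f2, a transcription factor of S phase entry (-0.90 ± 0.16, adjusted p = 0.0272), thymidine kinase Tk1 (-0.48), Birc5 (-0.48) and Kif23 (-0.40), of which Kif23 was not called with median-ratio scaling (adjusted p = 0.0639). In a fit of all 18 WT libraries only E2f2 was called on this list. None was called under a filter of a mean of at least 10 CPM, or when the prior spread did not follow mean expression. E2f2 was at 90.3, 105 and 113 CPM with Rspo1 and at 53, 75.5 and 40.2 CPM with Rspo2. Cholesterol and fatty acid synthesis genes had 2 of 37 lower (Lss, -0.43, and Elovl6, -0.44), none higher and a median of -0.20, but neither call was kept with median-ratio scaling. Of 51 stress, p53 and apoptosis genes, the quinone reductase Nqo1 alone was called (-1.04 ± 0.22, adjusted p = 0.046).

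**Figure D3:**
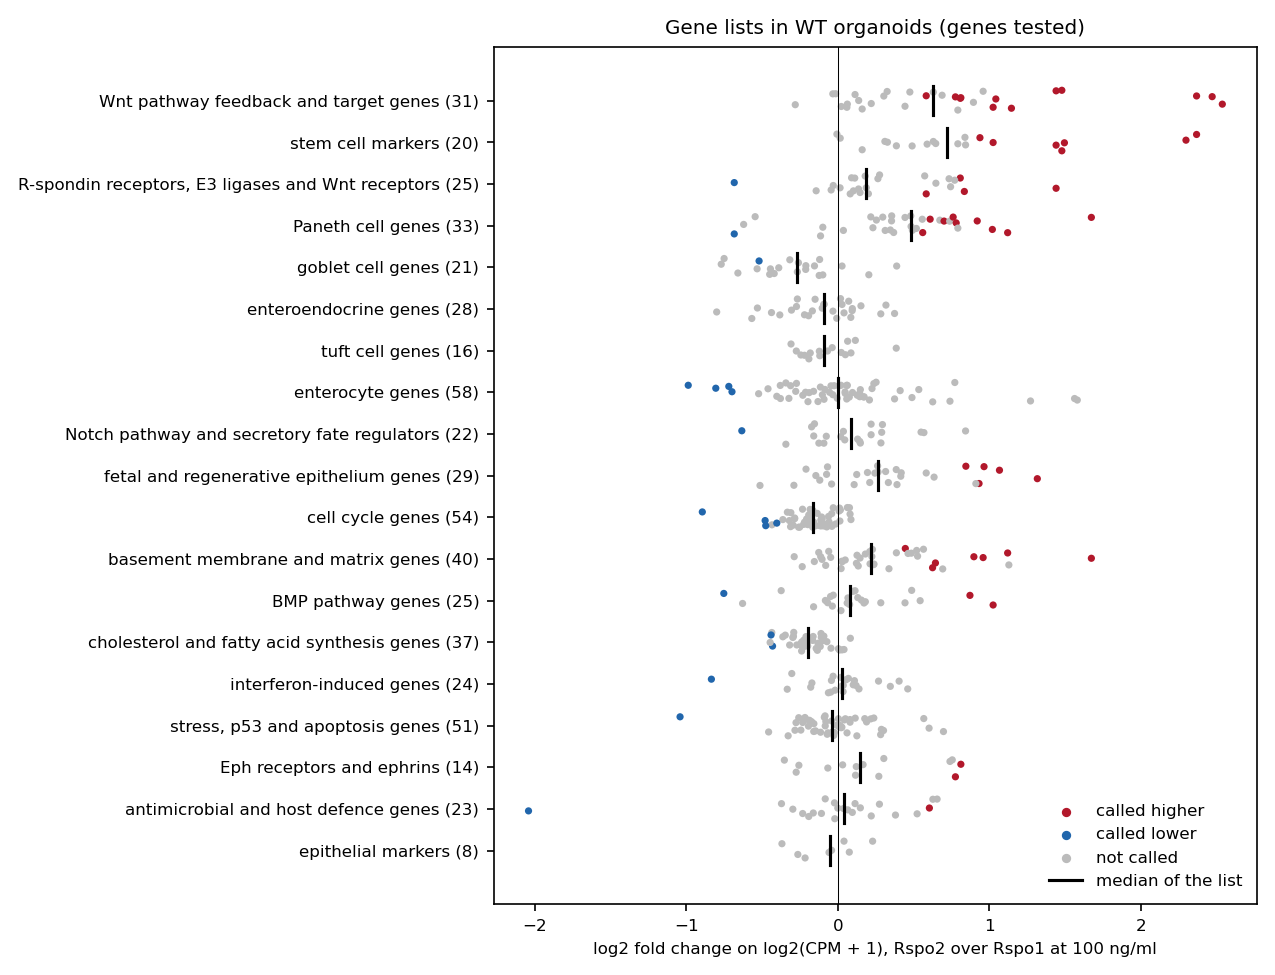
Log2 fold changes of Rspo2 over Rspo1 at 100 ng/ml for the tested members of 19 gene lists (number tested in brackets), with called genes in colour and the median of each list as a bar. The Wnt, stem cell and Paneth cell lists have medians of 0.63, 0.72 and 0.48, and the cell cycle and cholesterol lists have medians of -0.17 and -0.20.

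Markers of other cell types did not separate the ligand groups. The sum over 8 epithelial markers was 4449 to 5132 CPM with Rspo1 and 4566 to 4604 CPM with Rspo2. Of 20 mesenchymal markers 3 were tested and none was called, with a sum of 12.9 to 20.3 CPM with Rspo1 and 10.6 to 19.4 CPM with Rspo2; Lum and Dcn were at 0 and Col1a1 at or under 0.30 CPM. Immune markers summed to 65.0 to 79.3 CPM and 62.3 to 97.3 CPM, mostly Kit, which Paneth and other epithelial cells also transcribe, while Ptprc was at or under 0.10 CPM. Endothelial markers summed to 5.10 CPM or less, with Cdh5 and Kdr at 0.

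With Rspo3 at 100 ng/ml, 4 Wnt-responsive transcripts were below their levels with either other ligand. Lgr5 was at 50.7, 48.9 and 39.4 CPM with Rspo3, Sp5 at 4.00, 3.65 and 2.5 CPM, Nkd1 at 0.10, 0.40 and 0.70 CPM and Axin2 at 121, 157 and 88.2 CPM, so that the order was Rspo2, Rspo1, Rspo3 in every culture for these genes. Against Rspo3, Rspo2 gave 3106 higher genes (17.4% of 17801 tested) and 1473 lower genes (8.27%). This split depended on scaling: with median-ratio scaling, which moved the median of all genes from 0.11 to -0.03, it was 1945 higher and 2660 lower. The Wnt list had 27 of 31 genes higher and none lower in this comparison (21 and none with median-ratio scaling). The comparison shares its Rspo2 libraries with that against Rspo1, so its values stand beside the other and are not independent of it.

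At 5 ng/ml the ligands could be compared in 6 other libraries of the same cultures. Rspo2 gave 3564 higher genes (21.3% of 16707 tested) and 1655 lower genes (9.91%) than Rspo1, or 2554 and 2041 with median-ratio scaling. Of the 154 genes higher at 100 ng/ml, 103 were higher in all 3 cultures at 5 ng/ml (66.9%, beside 37.6% of all genes tested at 100 ng/ml), and of the 100 lower genes 60 were lower in all 3 (60.0%, beside 17.3%). Only 105 of the 154 passed the filter at 5 ng/ml, of which 68 were called higher and 3 lower. Those that failed it were low there, so their signs rest on few reads. All 100 lower genes passed it, with 54 called lower and 12 higher. Lgr5 was at 5.40, 5.65 and 3.45 CPM with Rspo1 at 5 ng/ml and at 15.9, 28.7 and 6.10 CPM with Rspo2 (1.41, adjusted p = 0.00897) at levels far below those at 100 ng/ml, and its difference between the doses was 0.03 (95% interval -0.97 to 1.03). Tnfrsf19 (1.79, adjusted p = 7.45e-05), Ascl2 (1.59, adjusted p = 0.000465) and Thbs1 (2.54, adjusted p = 0.000366) were also higher with Rspo2 at 5 ng/ml. Sp5 and Nkd1 did not pass or were too low to test: Sp5 was at 3.05, 2.05 and 1.40 CPM with Rspo1 and 0.90, 1.60 and 0.55 CPM with Rspo2, and Nkd1 stayed at or under 0.25 CPM with both.

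The difference between the doses was tested directly for each gene in the 18 WT libraries. It too cannot be told apart from a difference in survival at 5 ng/ml. The Rspo2-Rspo1 difference was more positive at 100 than at 5 ng/ml for 812 genes (4.45% of 18256 tested) and more negative for 2246 (12.3%), or 1213 and 1158 with median-ratio scaling, which moved the median of all genes from -0.10 to 0.02. Among cell cycle genes 43 of 54 were higher with Rspo2 at 5 ng/ml and 1 was lower, with a median of 0.69 (39 and 1 with median-ratio scaling), and the difference between doses was negative and called for 45 of them and positive for none (36 and none with that scaling). Kif23, a motor of cytokinesis, was at 48.5, 40.4 and 39.5 CPM with Rspo1 and at 54.8, 75.1 and 55.2 CPM with Rspo2 at 5 ng/ml (0.51, adjusted p = 0.0539), against 98.8, 98.4 and 94.8 CPM and 72.8, 79.1 and 68.7 CPM at 100 ng/ml. Enterocyte genes had 33 of 58 lower and 11 higher at 5 ng/ml, with a median of -0.65, and 17 had a called positive difference between the doses. Cholesterol and fatty acid synthesis genes had 26 of 37 lower and 2 higher at 5 ng/ml. For the Wnt list, by contrast, 16 of 28 were higher at 5 ng/ml with a median of 0.70, beside 0.63 at 100 ng/ml, and the difference between doses was called for 6 of 31, 2 positive and 4 negative.

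**Figure D4:**
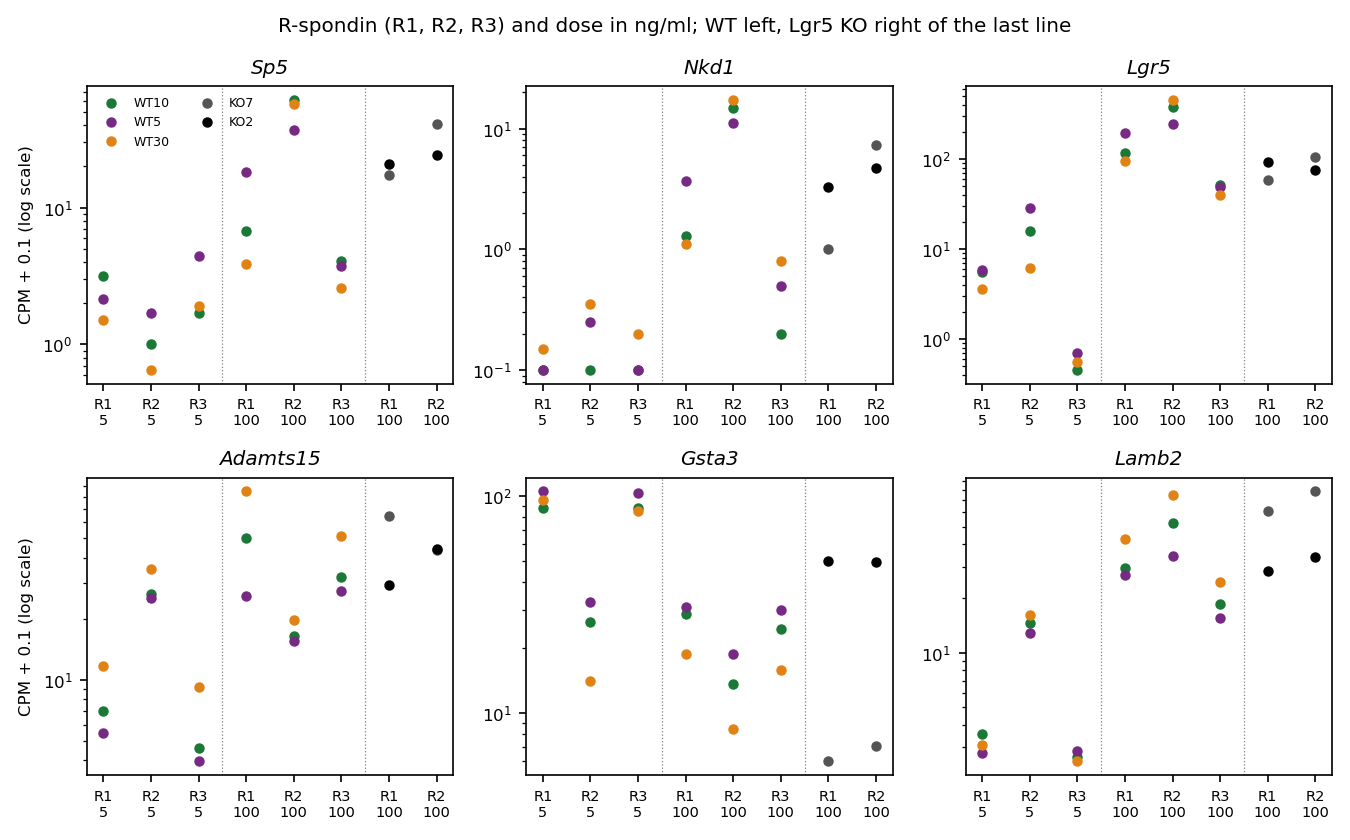
CPM plus 0.1 on a log axis of 6 genes in the WT organoids with Rspo1, Rspo2 and Rspo3 (R1, R2, R3) at 5 and 100 ng/ml and in the KO organoids with Rspo1 and Rspo2 at 100 ng/ml, with 1 point per culture. In the WT cultures Lgr5 is higher with Rspo2 than with Rspo1 at both doses, Sp5 and Nkd1 at 100 ng/ml, and Adamts15 is higher with Rspo2 at 5 ng/ml and lower at 100 ng/ml; in KO2, Lgr5 is at 91.7 CPM with Rspo1 and 75.0 CPM with Rspo2.

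In the Lgr5 KO organoids, Lgr5 transcript was read at 57.9 and 91.7 CPM with Rspo1 (KO7, KO2) and at 104 and 75.0 CPM with Rspo2. The knock-in disrupts the gene by insertion and counts over the whole gene are no check of the label. The genotypes also differed in sex: Xist was at 2252 to 3926 CPM in the 6 WT libraries and 0.85 to 213 CPM in the 4 KO libraries, and Ddx3y at 0.45 CPM or less and 55.0 to 73.5 CPM, so genotype and sex cannot be told apart. The Rspo1 library of KO2 stood apart, with 213 CPM of Xist beside 0.85 CPM in the Rspo2 library of that culture. Every KO2 difference rests on that library and may not be a difference between ligands, so values of KO7 alone are given too. Over the 154 genes higher in WT its median was 0.40 in KO7 and 0.08 in KO2, 82 genes were higher in both KO cultures (53.2%, beside 26.2% of all genes tested) and 6 were lower in both. In KO7 alone 132 were higher (85.7%, beside 53.4%). Of the 100 genes lower in WT, 29 were lower in both (29.0%, beside 24.1%), a share near that of all genes, and in KO7 alone 61 were lower (61.0%, beside 45.1%). Sp5 was at 17.2 and 20.8 CPM with Rspo1 and at 40.6 and 24.0 CPM with Rspo2, and Tnfrsf19 at 15.7 in both cultures and then 62.1 and 25.4 CPM. Thbs1 did not follow, at 59.2 and 45.8 CPM with Rspo1 and 43.7 and 49.3 CPM with Rspo2. Nor did the Paneth cell list, with a median of -0.28 in KO7 and -0.03 in KO2. Of its 33 genes tested, 4 were higher and 16 lower in both KO cultures, beside 26.2% and 24.1% of all genes tested. On the Wnt list 10 of 31 were higher and 5 lower in both, with medians of 0.262 in KO7 and -0.05 in KO2. The stem cell list had 2 of 20 higher and 3 lower in both, with medians of 0.415 in KO7 and -0.105 in KO2. No gene passed a test of the difference between KO and WT (limma, 18304 genes, 1322 with an unadjusted p under 0.05), which with 2 against 3 cultures does not show that they responded alike.

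**Figure D5:**
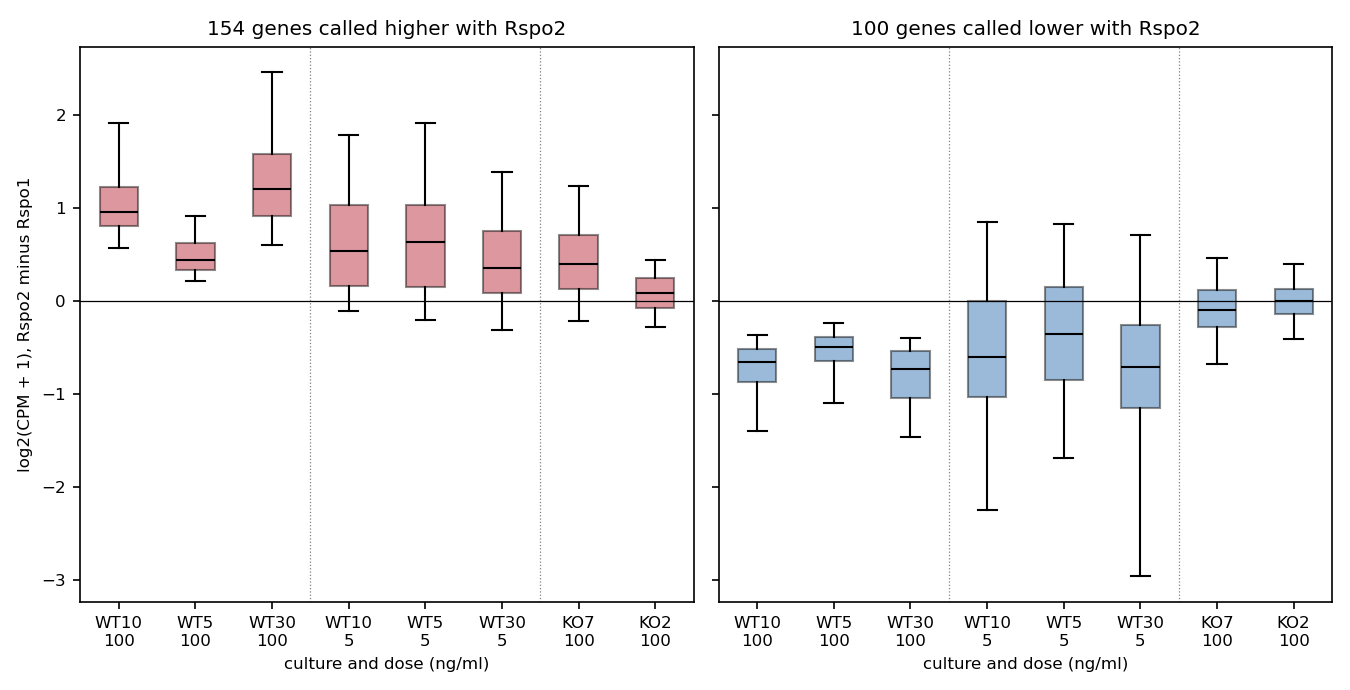
Boxes show the differences of log2(CPM + 1) between Rspo2 and Rspo1 over the 154 called rises (left) and 100 called falls (right) in each WT culture at 100 and 5 ng/ml and in the KO cultures at 100 ng/ml (line at the median, box from the first to the third quartile, whiskers from the 5th to the 95th percentile). The 3 boxes at the left of each panel chose the genes; the medians at 5 ng/ml run from 0.35 to 0.63 and from -0.71 to -0.35.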

How the data were processed

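Total RNA of organoids was made into libraries after depletion of ribosomal RNA and sequenced as paired ends. The authors mapped reads to GRCm38 and counted them per Ensembl gene (release 90); the submitters' processing notes name Trimmomatic 0.36, STAR 2.5.3a and HTSeq 0.9.1, and the deposited values are CPM in steps of 0.05 for 52636 genes in 30 organoid libraries. How reads in exons shared by genes, such as the 9 Ugt1a genes, were counted is not given in the sources used here. Reads per library were recovered from the spacing of low values; in the deeper libraries a step can hold more than 1 read, so counts could not be rebuilt and no count test was run. A separate CPM table of sorted cells was not used.

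Values were taken as log2(CPM + 1). Genes with at least 1 CPM in 3 libraries of a fit entered a limma fit (version 3.58.1, R 4.3.3, prior spread following mean expression) with culture as a block and Benjamini-Hochberg adjustment over all genes, at a false discovery rate of 0.05. The fit at 100 ng/ml held 9 WT libraries, with Rspo3 adding to the estimate of spread and to the filter. Libraries of the same culture deviated together (correlation of deviations 0.657 for WT10, 0.498 for WT5 and 0.706 for WT30, against at most -0.035 between cultures); the pairing comes from the culture, each grown from 1 embryo. Scripts were tested on simulated data. Coordinates are from GENCODE vM21, in which 52403 gene IDs were found. Named genes were the 10 largest called rises and 10 largest falls of protein-coding genes with the same sign in each culture, up to 4 called genes per list and direction, and fixed stem cell, lineage, matrix and receptor genes. Of these, 1 gene is not reported here, although list counts include it. The members, lists and tests were chosen with earlier results of these data known. Alternatives were another pseudocount, filter, scaling, model, threshold and set of libraries, and each culture left out. Tables and plots were made with Python 3.11.15, pandas 2.3.3 and matplotlib 3.10.9.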

Additional observations from a re-analysis of the deposited data

Results flagged for a closer look

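For 24 named genes called at 100 ng/ml, the Rspo2-Rspo1 difference itself differed between 100 and 5 ng/ml in the WT cultures (limma interaction over 18 libraries, adjusted p from 1.86e-06 to 0.0476). These genes were chosen for a call at 100 ng/ml, which favours a larger difference there. The limit given above on survival at 5 ng/ml holds for them too.

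The difference was more positive at 100 ng/ml, for Sp5 (interaction of 3.19 on the log2 scale), Nkd1 (2.32), Slc14a1 (2.08), Kif26b (1.65), Arl4c (1.29), Pla2g2a (1.00), Ctgf (0.91), Mmp7 (0.85) and Efna3 (0.74). Efna3 had a difference of 0.08 at 5 ng/ml and Sp5 one of -0.65, which was not called. The others of these genes were under 1 CPM with both ligands at 5 ng/ml, where log2(CPM + 1) holds any difference near 0, so for them the result is set by the scale and the low level and does not show that the ligand difference depends on dose.

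It was more negative at 100 ng/ml for Adamts15 (-3.23), Dmbt1 (-1.89), L1cam (-1.34), E2f2 (-0.91), Kif23 (-0.91), Tk1 (-0.62) and Nrarp (-0.55), and for the laminin gene Lamb2 (-1.29) and the protease gene Mmp15 (-0.77), which were higher with Rspo2 at both doses. Adamts15 changed direction: it was at 6.90, 5.35 and 11.6 CPM with Rspo1 and 26.4, 25.2 and 35.1 CPM with Rspo2 at 5 ng/ml (1.79, adjusted p = 0.000118), but lower with Rspo2 in every culture at 100 ng/ml.

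The remaining genes were lower with Rspo2 at both doses and more so at 5 ng/ml: Ace (2.77), Ifi27l2b (1.76), Ces1f (1.29), Nqo1 (1.24), Gsta3 (1.09) and Slc6a19 (0.64).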

How the results depend on the processing

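At 100 ng/ml the number of genes called between Rspo2 and Rspo1 depended on the fit. Each of the 254 genes kept its sign wherever it was tested, but most settings could not have changed it. All 154 rises were positive and all 100 falls negative in each culture, so leaving out a culture could not turn a sign. The block, the trend, the filter and the added libraries do not alter the estimated difference. The 254 became 608 at a false discovery rate of 0.1, 39 with every gene above 0 in 1 library, 18 with a mean of at least 10 CPM, 37 without the trend, 0 without the culture block (no replicate block) and 0 to 777 with 1 culture left out. Median-ratio scaling gave 337 genes, 247 higher and 90 lower, and a fold change above 1.5 left 204. The list counts moved as well. With a mean of at least 10 CPM, 1 of 21 Paneth cell, 1 of 21 matrix and 0 of 14 fetal and regenerative genes were called higher. Without WT5 these were 9 of 31, 12 of 40 and 4 of 27. Of 56 named genes called, 8 stayed called under each of 8 settings (pseudocount 0.1, both filters, median-ratio scaling, no trend, the 6 libraries alone, all 18 WT libraries and without WT5), namely Tnfrsf19, Thbs1, Dmbt1, Adamts15, Lipg, L1cam, Gsta3 and Ces2a; the cause of the other losses was not tested. Loxl4 ranged from -0.29 to 0.10 with 1 culture left out, changing sign without WT10 (0.10) and without WT30 (0.006).

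Against Rspo3, the 4579 genes became 2123 with a fold change above 1.5, 2921 with a mean of at least 10 CPM, 1918 with no replicate block and 1172 to 4588 with 1 culture left out. At 5 ng/ml, 5219 became 2714, 3417 and 1736 to 3660 under the fold, the mean filter and 1 culture left out, and 4043 with no replicate block. The 3058 genes that differed between doses became 1381 with no replicate block and 623 to 1465 with 1 culture left out. For KO against WT, 0 to 69 genes were called with 1 culture left out (69 without WT5, 5 without KO7, 4 without KO2). With 3 cultures, differences of low genes near 1 CPM had few reads behind them.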

Other observations

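Families of enzymes that metabolise foreign compounds were picked by symbol after their values were seen and so carry no test, and most of their members were not called. Of 100 protein-coding genes of the carboxylesterases, glutathione transferases, UDP-glucuronosyltransferases, aldo-keto reductases and cytochromes P450, 11 were called lower at 100 ng/ml and none higher, beside 84 of 12949 protein-coding genes called lower (0.649%). A log2 fold change under 0 was seen in 77 of the 100, beside 55.7% of protein-coding genes, and the median was -0.27 beside -0.02. Without the 9 Ugt1a genes, which share exons, 11 of 91 were called lower and 68 were under 0. The called genes were 4 of 12 carboxylesterases, 2 of 23 glutathione transferases, 1 of 16 UDP-glucuronosyltransferases, 2 of 10 aldo-keto reductases and 2 of 39 cytochromes P450. Ces2g (-0.67), Ces1e (-0.58), Mgst2 (-0.83), Ugt2b36 (-0.84), Akr1c19 (-0.75), Akr1c13 (-0.50) and Cyp2w1 (-0.56) were called beside Ces1f, Ces2a, Gsta3 and Cyp2c70. Akr1c19 was at 328, 347 and 248 CPM with Rspo1 and at 174, 261 and 130 CPM with Rspo2. In the separate libraries at 5 ng/ml, 66 of 98 were called lower with Rspo2 and 8 higher, with a median of -0.63, beside 1165 of 12395 protein-coding genes lower (9.4%). At that dose survival may have differed between the ligands.

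The Ugt1a cluster (chromosome 1, 88055388 to 88220002, GRCm38) held 6 of the called falls as pseudogenes, whose reads, like those of Dnajb3, cannot be separated from those of the far more abundant Ugt1a genes. Gm15369, for example, was at 13.5, 8.70 and 6.70 CPM with Rspo1 and at 4.45, 5.40 and 2.05 CPM with Rspo2. The 9 Ugt1a genes themselves were lower by 0.49 to 0.54 on the log2 scale and none was called.

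Of the 154 genes higher with Rspo2 at 100 ng/ml, 128 were higher with Rspo3 at 100 than at 5 ng/ml in all 3 cultures (83.1%, beside 58.8% of all genes tested), and of the 100 lower genes 60 were lower (60.0%, beside 23.1%) and 33 were higher (33.0%). The Rspo3 libraries at 100 ng/ml were part of the fit that called the genes, through the estimate of spread and the filter on low values. By the paper's account Rspo3 allowed full survival at 100 but not at 5 ng/ml, so dose and survival cannot be told apart here.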
